A study of Mus musculus with 2 samples.

Results

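Macrophages that are exposed to interleukin 4 (IL-4) switch on a characteristic set of genes, and 8 of these genes were followed here in cultures of mouse CD8 T cells: Chil3, Chil4, Mmp12, Arg1, Fn1, Mrc1, Clec10a and Tmem26. Members were taken by gene symbol in the platform annotation. All 8 had a probe set, 1 each, among the 19505 genes measured on the Affymetrix arrays. The genes were selected on what is known of IL-4-activated macrophages, with the Tc9 and Tc1 signals of these same arrays in view, so their differences are a description and carry no test. CD8 T cells from spleen and lymph node were primed through CD3 and CD28 and polarized for 3 days, then moved to medium with 10 ng/mL recombinant human IL-2 for 2 more days, and total RNA was taken on day 5. The Tc9 culture, named for the cytokine IL-9, was polarized with IL-4 at 10 ng/mL, TGF-beta at 1 ng/mL and the anti-interferon gamma antibody XMG1.2 at 20 µg/mL. The Tc1 culture, the interferon gamma type, was polarized with recombinant human IL-2 at 10 ng/mL. Each group was 1 array, so no difference below has a replicate check, and culture condition and array cannot be told apart. The labels give no mouse strain, age or number of mice, and no purity of the isolated cells. The source name of the Tc9 sample says Tc1, while its title and description say Tc9, and the title was followed.

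IL-4 acts through a receptor that holds the IL-4 receptor alpha chain, JAK kinases and the transcription factor STAT6. In macrophages this pathway gives the state called alternative activation, in which chitinase-like lectins, arginase 1, matrix proteins, a matrix protease and lectin receptors of the cell surface are made. T cells carry the same receptor and answer IL-4 through STAT6 as well. The genes below are ordered by role: secreted chitinase-like proteins, a secreted protease, an enzyme of arginine breakdown, a matrix protein, and then membrane proteins.

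The sequences before the start sites of Chil3 and Chil4 are shown because both of these neighbouring genes had higher signals in the Tc9 culture. That of Tmem26, whose signal hardly differed, is shown because it holds the spacing that STAT6 is known to prefer. Whether STAT6 acts at any of these windows was not tested. RefSeq start windows (GRCm38.p6) were found for 5 of the 8 genes, and Arg1, Fn1 and Clec10a were not matched. Each line gives the 250 bases before the start, read on the strand of the gene, and capitals mark the motifs searched for.
Chil3, chr3:106167565-106167814, minus strand: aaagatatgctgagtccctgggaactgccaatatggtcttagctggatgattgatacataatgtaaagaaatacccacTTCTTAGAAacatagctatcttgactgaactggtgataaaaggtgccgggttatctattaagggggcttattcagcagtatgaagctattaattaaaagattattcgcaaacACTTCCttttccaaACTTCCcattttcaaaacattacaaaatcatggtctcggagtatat
Chil4, chr3:106219480-106219729, minus strand: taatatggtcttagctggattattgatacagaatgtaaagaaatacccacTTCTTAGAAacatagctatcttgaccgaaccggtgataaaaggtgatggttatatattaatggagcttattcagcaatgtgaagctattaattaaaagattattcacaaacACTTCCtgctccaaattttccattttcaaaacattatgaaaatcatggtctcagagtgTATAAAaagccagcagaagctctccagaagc
Tmem26, chr10:68723496-68723745, plus strand: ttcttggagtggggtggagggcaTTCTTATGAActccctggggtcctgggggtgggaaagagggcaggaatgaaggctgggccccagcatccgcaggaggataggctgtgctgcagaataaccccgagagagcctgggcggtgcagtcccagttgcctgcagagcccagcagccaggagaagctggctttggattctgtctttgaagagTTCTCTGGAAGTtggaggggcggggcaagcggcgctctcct
The Chil3 and Chil4 windows aligned over 220 bases with 91.4% identity. The alignment began at base 30 of the Chil3 window and base 2 of the Chil4 window, so distances to the 2 annotated starts are offset. The motifs were searched on both strands. They were TTCNNNNGAA, called the STAT6-type spacing here, TTCNNNGAA, a STAT-type spacing, GGAAGT, an ETS-type core of the kind PU.1 binds, and TATAAA. Both Chil windows held TTCTTAGAA, a match to TTCNNNGAA, which 7.02% of the 32851 windows in the table held. It began 172 bases before the Chil3 start and 200 bases before the Chil4 start. The ETS-type core occurred at 2 places in the Chil3 window and at 1 in the Chil4 window, against 19.7% of all windows with at least 1. TATAAA lay in the Chil4 window, and 12.4% of all windows held it. The Chil3 window ends at about that place of the alignment, so it does not show whether Chil3 has TATAAA there. TTCNNNNGAA, held by 5.85% of all windows, matched at 2 places in the Tmem26 window, of which the second overlapped a GGAAGT. The windows of Mmp12, of which RefSeq gives 2, and of Mrc1 held only the ETS-type core among these motifs. A match is a string of letters and no evidence of binding.

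The deposited values are probe set intensities on a linear scale, and they are given below as signals, with their log2 values beside them where differences are taken. Differences are log2 Tc9 minus log2 Tc1, so a positive value means a higher signal on the Tc9 array. A gene was called detectable where the brighter array reached a log2 signal of 6.43, which is the median over all genes and both arrays, and 10147 of 19505 genes did. Of the 5222 control probe sets with neg in their ID, 91.7% on the Tc9 array and 89.9% on the Tc1 array lay below that level. Where the dimmer array lay under the level, a fold is given as "at least", with the level in place of the dim value. Il9 had signals of 351 in Tc9 cells and 28.2 in Tc1 cells, and Ifng had 190 and 622, both in the direction of the labels. Cd8a had 3906 in Tc9 cells and 4680 in Tc1 cells.

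Of the 8 genes, 7 were detectable and 5 of those, Chil3, Chil4, Mmp12, Arg1 and Fn1, had signals at least 2-fold higher on the Tc9 array. None had a signal 2-fold lower. The same size rule took in 2.62% of all detectable genes in the direction of Tc9 and 2.79% in the direction of Tc1. Since the genes were put together with these values in view, nothing is read from that gap. With dim values set at the detection level, Fn1 dropped under 2-fold and 4 genes stayed, where 2.01% of detectable genes passed 2-fold toward Tc9 and 2.22% toward Tc1. The median difference of all 8 was 2.18, against 0.0045 over all 19505 genes, and 0.96 with dim values at the level. The genes split into 5 with higher signals, a pair that hardly differed, Clec10a and Tmem26, and Mrc1, which stayed under the level on both arrays.

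**Figure D1:**
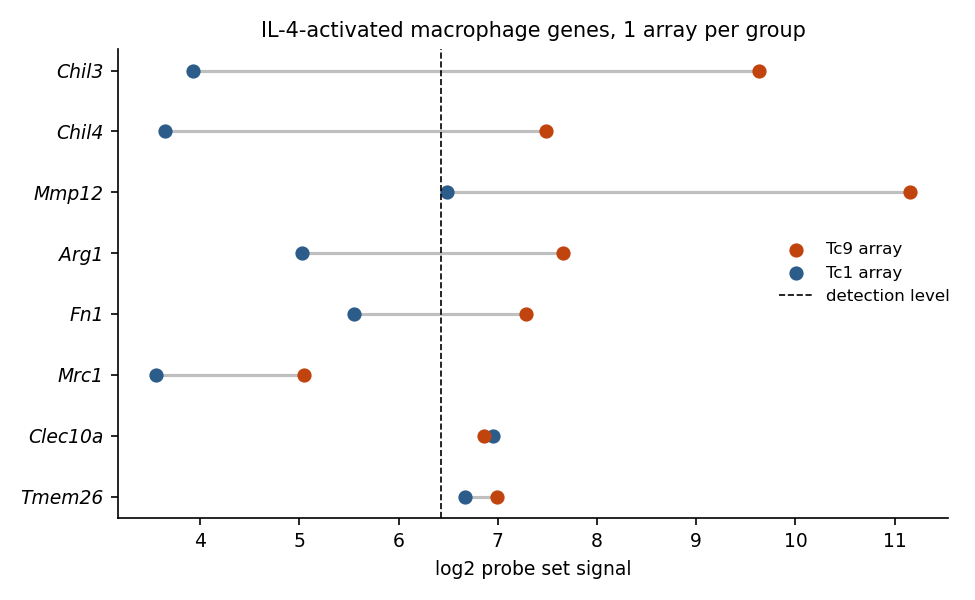
Log2 probe set signal (horizontal axis) of the 8 genes on the Tc9 array and the Tc1 array, 1 array each, with the detection level of 6.43 as a dashed line. Chil3, Chil4, Arg1 and Fn1 lay above the level on the Tc9 array and below it on the Tc1 array, Mmp12 lay at 6.49 on the Tc1 array, and Clec10a and Tmem26 had nearly equal signals.

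Chil3 encodes Ym1, a secreted chitinase-like lectin that binds sugars without cutting chitin, and in mice it is a standard mark of IL-4-activated macrophages. Its signal was 792 in Tc9 cells and 15.2 in Tc1 cells, or 9.63 and 3.93 on the log2 scale. That is the largest measured difference of all 10147 detectable genes, 5.70, and at least 9.18-fold with the Tc1 value at the level. The Tc1 signal lay above 44.0% of the neg control probe sets, so it was in the middle of the control signals, while the Tc9 signal lay above 99.0% of them. With dim values at the level, Chil3 had rank 8.

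Chil4 encodes Ym2, a close relative of Ym1. Its signal was 179 in Tc9 cells and 12.5 in Tc1 cells, or 7.49 and 3.65 on the log2 scale, a difference of 3.84 and rank 9 among detectable genes. Because the Tc9 signal stood only a little over the level, the bound on the fold is at least 2.08, and its rank with dim values at the level was 183. Chil3 and Chil4 transcripts are closely related, and probes may not separate them. Whether the Chil4 signal on the Tc9 array is independent of Chil3 was not tested.

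The higher signals did not extend to the genes beside them. In the RefSeq gene order on chromosome 3, Chia1, a true chitinase, lies on one side of the pair and Chil6 on the other. Chia1 had log2 signals of 4.49 in Tc9 cells and 4.62 in Tc1 cells, and Chil6 had 4.50 and 4.42, all below the level. Dennd2d, the next gene beyond Chil6, was well above the level, at 10.35 in Tc9 cells and 10.90 in Tc1 cells. Of the 9 measured genes of the chitinase and chitinase-like family, 4 were detectable. Chil3 and Chil4 were the ones past 2-fold, both toward Tc9, against 2.62% of all detectable genes, and none was toward Tc1, against 2.79%. Chil3 and Chil4 were chosen with these values in view, so nothing is read from that count. The other detectable ones were Chid1, at 7.88 in Tc9 cells and 7.29 in Tc1 cells, and Ctbs, a lysosomal chitobiase, which touched the level on the Tc9 array. The median of the 9 was 0.08.

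Mmp12 encodes macrophage elastase, a secreted metalloprotease that cuts elastin and other matrix proteins. Its signal was 2284 in Tc9 cells and 90.1 in Tc1 cells, or 11.16 and 6.49 on the log2 scale. It was the only 1 of the 5 higher genes that reached the level on both arrays, by a narrow margin in Tc1 cells, where 90.4% of the neg controls were dimmer. The fold of 25.4 rests on that Tc1 value, which is below the 95th percentile of the neg controls on the Tc1 array, a log2 signal of 7.30. With that percentile as the level the fold is at least 14.5. Mmp12 was at rank 4 among detectable genes by measured difference and at rank 2 with dim values at the level.

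Mmp12 lies in a cluster of metalloprotease genes on chromosome 9. Its neighbour Mmp13, a collagenase, had log2 signals of 6.22 in Tc9 cells and 4.53 in Tc1 cells, a difference of 1.70 that stayed under the level on both arrays. Mmp1b, Mmp3, Mmp1a, Mmp10 and Mmp8, the next genes on the other side, were all below the level on both arrays, with differences between -0.02 and 0.33. Of 15 measured metalloproteases and Timps other than Mmp12, 1 was detectable. This was Timp2, a secreted inhibitor of metalloproteases, at 9.19 in Tc9 cells and 6.42 in Tc1 cells, at least 6.77-fold higher. Without the filter, 2 of the 15, Timp2 and Mmp13, passed 2-fold toward Tc9 and none toward Tc1, against 1.80% and 2.08% of all genes.

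**Figure D2:**
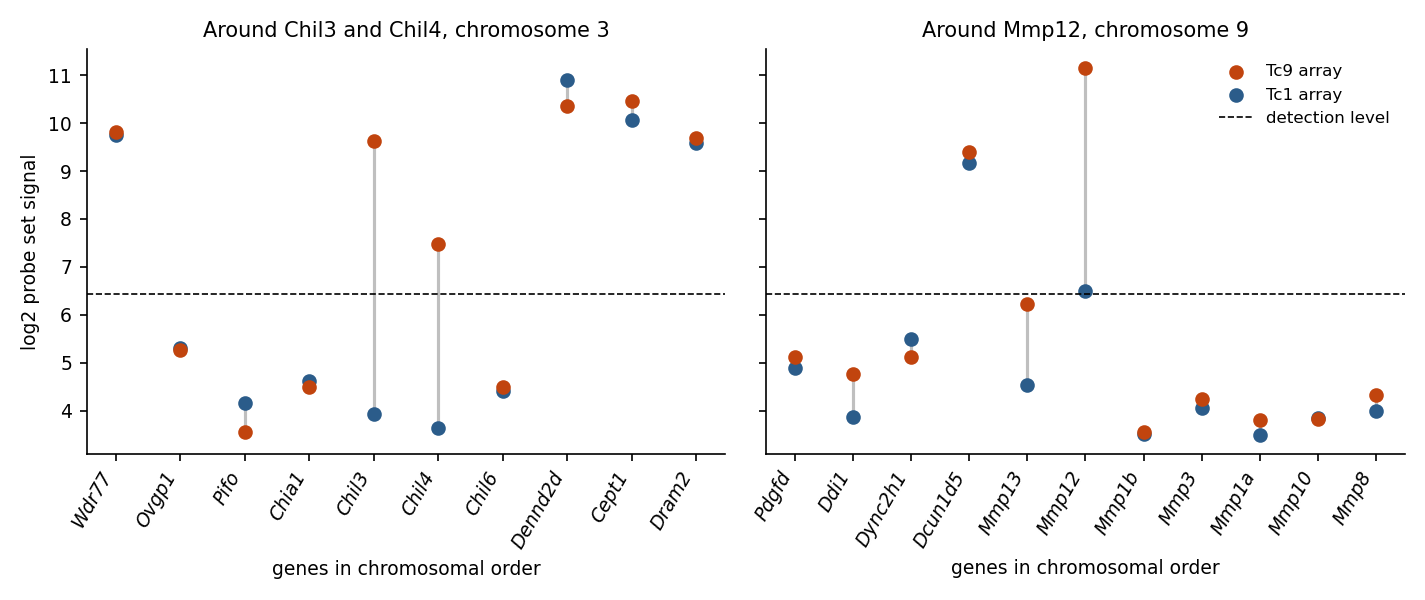
Log2 probe set signal (vertical axis) on the Tc9 and Tc1 arrays of the genes within 5 places of Chil3 (left) and of Mmp12 (right) in RefSeq gene order, with the detection level as a dashed line; Chil5 is not shown. Chil3, Chil4 and Mmp12 stand apart from their neighbours, of which only Mmp13 differed by more than 2-fold, below the level.

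Arg1 encodes arginase 1, the cytosolic enzyme that splits arginine into ornithine and urea. Its signal was 201 in Tc9 cells and 32.6 in Tc1 cells, or 7.65 and 5.02 on the log2 scale, a difference of 2.63 and rank 41 among detectable genes. The Tc1 signal lay among the controls, above 71.1% of them, and the fold is at least 2.33. Nos2, the inducible nitric oxide synthase that uses the same substrate and marks classically activated macrophages, went the other way. It had a signal of 16.0 in Tc9 cells and 162 in Tc1 cells, at least 1.87-fold lower in Tc9 cells. Arg2, the mitochondrial arginase, was below the level on both arrays, at 4.09 in Tc9 cells and 3.94 in Tc1 cells.

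Around Arg1, most detectable genes of the pathway differed by less than 2-fold. Of 26 measured genes of arginine, ornithine and polyamine metabolism, Arg1 included, 17 were detectable. Of those, 2 passed 2-fold toward Tc9, Arg1 itself among them, against 2.62% of all detectable genes, and 1 toward Tc1, against 2.79%. With dim values at the level, 2 stayed past 2-fold toward Tc9 and none toward Tc1. The median difference of all 26 was 0.07. Besides Arg1 and Nos2, the gene past 2-fold was Gatm, which uses arginine to start creatine synthesis, with a signal of 364 in Tc9 cells and 109 in Tc1 cells, 3.33-fold higher. Odc1, which turns ornithine into putrescine, had 1480 in Tc9 cells and 2245 in Tc1 cells, 1.52-fold lower. Oat, which sends ornithine toward proline, had 993 and 658, 1.51-fold higher in Tc9 cells.

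Fn1 encodes fibronectin, a matrix glycoprotein that integrins bind. Its signal was 156 in Tc9 cells and 46.9 in Tc1 cells, or 7.29 and 5.55 on the log2 scale, a difference of 1.73. The fold is at least 1.81, so with the dim Tc1 value at the level it does not reach 2-fold. Of 15 measured fibronectin receptor and partner genes, 11 were detectable, and the median difference of all 15 was -0.07. Of the detectable ones, 1 passed 2-fold toward Tc9, against 2.62% of all detectable genes, and none toward Tc1, against 2.79%. The gene past 2-fold was Itgb3, the beta 3 integrin chain, with a signal of 1394 in Tc9 cells and 456 in Tc1 cells, 3.06-fold higher. Itga4 and Itgb1, the chains of the integrin VLA-4, had differences of -0.89 and -0.79. Fibroblasts make much fibronectin, and of 12 measured fibroblast and stromal genes 3 were detectable. None of the 3 was past 2-fold, against 2.62% of all detectable genes toward Tc9 and 2.79% toward Tc1. The summed signal of all 12, of which 9 lay below the level on both arrays, was 521 in Tc9 cells and 589 in Tc1 cells. Dcn and Lum lay far below the level on both arrays. A part of fibroblasts in the Fn1 signal was not tested.

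Of the membrane proteins, Clec10a and Tmem26 hardly differed and Mrc1 was not resolved. Mrc1, the mannose receptor CD206, had a signal of 33.2 in Tc9 cells and 11.8 in Tc1 cells, or 5.05 and 3.55 on the log2 scale. Both values lie under the level, and 72.9% and 32.6% of the neg controls were dimmer on the Tc9 and Tc1 arrays, so no fold is given, though the measured Tc9 value was the higher. Clec10a, the galactose-binding lectin MGL1, had a signal of 116 in Tc9 cells and 124 in Tc1 cells, a difference of -0.10. Tmem26, a membrane protein gene, had 127 in Tc9 cells and 102 in Tc1 cells, a difference of 0.32. Among 1324 control probe sets with pos in their ID, the differences had a robust SD of 0.31 around a median of 0.11, so the Clec10a and Tmem26 differences are of the size that these controls show between the arrays. Both genes also lay close to the level, with 94.2% and 94.8% of the neg controls dimmer than Clec10a and Tmem26 on the Tc9 array.

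The other genes known from IL-4-activated macrophages gave a mixed picture. Of 38 such genes with a probe set, 18 were detectable. Of those, 7 passed 2-fold toward Tc9, against 2.62% of all detectable genes, and none toward Tc1, against 2.79%. All 18 reached the level on the Tc9 array but 14 on the Tc1 array. Ccl24, Ccl17, Pparg and Cd200r1, all among the 7, were detectable through the Tc9 array alone, so the filter favoured that direction. Counted over all 38 without the detection filter, 10 passed 2-fold toward Tc9, against 1.80% of all genes, and none toward Tc1, against 2.08%, and 27 had a higher and 11 a lower signal. Their median difference was 0.29, and 0 with dim values at the level, where 5 genes stayed past 2-fold. Ccl24, an eosinophil-attracting chemokine, had a signal of 520 in Tc9 cells and 54.6 in Tc1 cells, at least 6.03-fold higher. Egr2, a transcription factor induced by IL-4 in macrophages and by antigen receptors in T cells, had 3499 in Tc9 cells and 921 in Tc1 cells, 3.80-fold higher. Cdh1, which encodes E-cadherin, had 419 and 97.6, and Ccl17, a ligand of CCR4, had 235 and 74.1 in Tc9 and Tc1 cells. Cd200r1, an inhibitory receptor, had 107 in Tc9 cells and 16.0 in Tc1 cells, at least 1.24-fold higher. Pparg, a lipid-sensing nuclear receptor, and Igf1, a growth factor named after its value was seen, made up the 7, with differences of 1.65 and 1.26. The fold of Pparg is at least 1.71, and Cd200r1 and Pparg fell under 2-fold with dim values at the level.

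Several standard marks of the macrophage state were not among the 7 detectable genes past 2-fold. Retnla, which encodes the secreted protein RELM-alpha and is commonly used in mice beside Chil3 and Arg1, had a signal of 23.4 in Tc9 cells and 9.09 in Tc1 cells, both under the level. It was among the 10 past 2-fold toward Tc9 without the filter, with a difference of 1.36. Mgl2, the relative of Clec10a, had 19.5 in Tc9 cells and 16.6 in Tc1 cells, and Cd163, a scavenger receptor, had 18.7 and 20.5. Msr1, Stab1 and Alox15 were likewise below the level on both arrays. Irf4, detectable at 3243 in Tc9 cells and 3160 in Tc1 cells, and Ccl22, at 443 and 581, differed by 0.04 and -0.39 on the log2 scale.

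**Figure D3:**
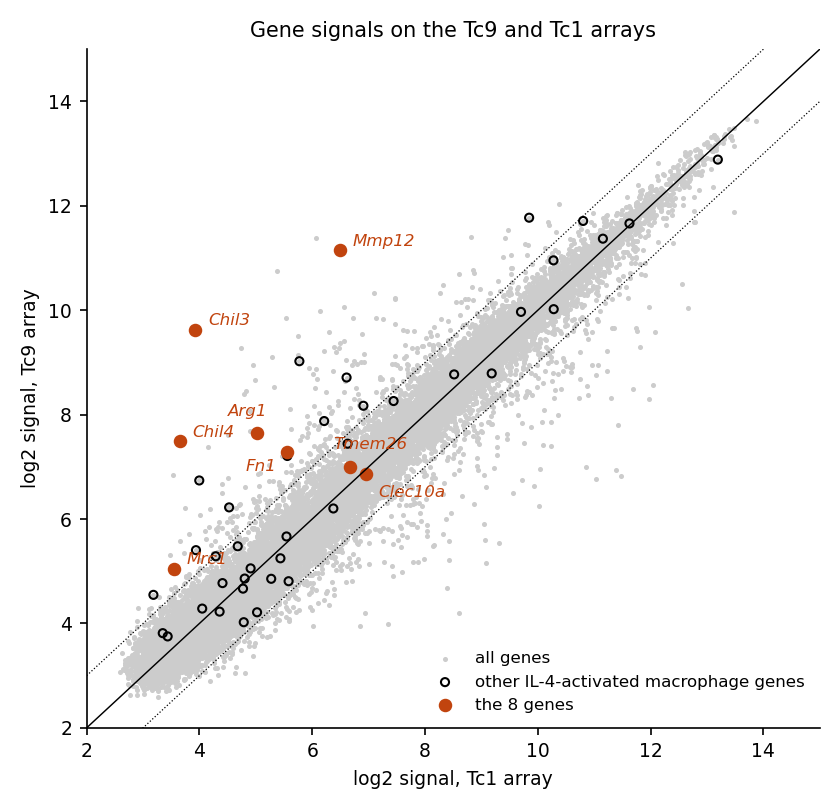
Log2 signal of each of the 19505 genes on the Tc1 array (horizontal axis) and the Tc9 array (vertical axis), with the 8 genes named and the other IL-4-activated macrophage genes as open circles. The solid line marks equal signals and the dotted lines 2-fold differences; Chil3 and Mmp12 lie farthest above the line among the 8, and Clec10a and Tmem26 lie close to it.

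The detectable receptor and signalling genes of the IL-4 pathway differed by less than 2-fold between the cultures. Of 13 measured genes, 9 were detectable and none of those was past 2-fold, which is near the shares of all detectable genes, 2.62% toward Tc9 and 2.79% toward Tc1. Without the filter, 1 of the 13 passed 2-fold toward Tc9 and none toward Tc1, against 1.80% and 2.08% of all genes. The median difference of all 13 was 0.24. Il4ra, the IL-4 receptor alpha chain, had a signal of 3838 in Tc9 cells and 3252 in Tc1 cells, 1.18-fold higher. Socs1, a feedback inhibitor of JAK kinases, had 1986 in Tc9 cells and 1242 in Tc1 cells, 1.60-fold higher, and Jak2 had 1945 and 1247. Irs2, an adaptor of the IL-4 receptor, was 1.35-fold lower in Tc9 cells. The gene of the cytokine itself, Il4, was the one past 2-fold without the filter, with a difference of 1.62. It was below the level on both arrays, at 5.36 in Tc9 cells and 3.73 in Tc1 cells. Il2rg and Jak3 were not analysed here.

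Genes of classical macrophage activation, the state brought about by interferon gamma and microbial products, went the other way. Of 24 measured genes, 12 were detectable. None of those passed 2-fold toward Tc9, against 2.62% of all detectable genes, and 7 did so toward Tc1, against 2.79%. All 12 reached the level on the Tc1 array but 6 on the Tc9 array. Without the filter, 1 of the 24 passed 2-fold toward Tc9 and 9 toward Tc1, against 1.80% and 2.08% of all genes. Of the neg controls that reached the level on either array, 12.5% were at least 2-fold lower on the Tc9 array and 3.76% at least 2-fold higher. The median difference over all 24 was -0.77, and -0.19 with dim values at the level, where 3 genes stayed past 2-fold. Cxcl9, a chemokine induced by interferon gamma, had a signal of 25.6 in Tc9 cells and 337 in Tc1 cells, at least 3.91-fold lower. Cd80, a costimulatory ligand that T cells can also carry, had 1460 in Tc9 cells and 6043 in Tc1 cells, 4.14-fold lower. Ptgs2, a prostaglandin synthase, had 18.3 and 123, and Cxcl10, another chemokine, 35.4 and 128, in Tc9 and Tc1 cells. Interferon gamma was neutralized in the Tc9 medium only, as far as the labels say, and the part of that antibody in these values was not tested.

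**Figure D4:**
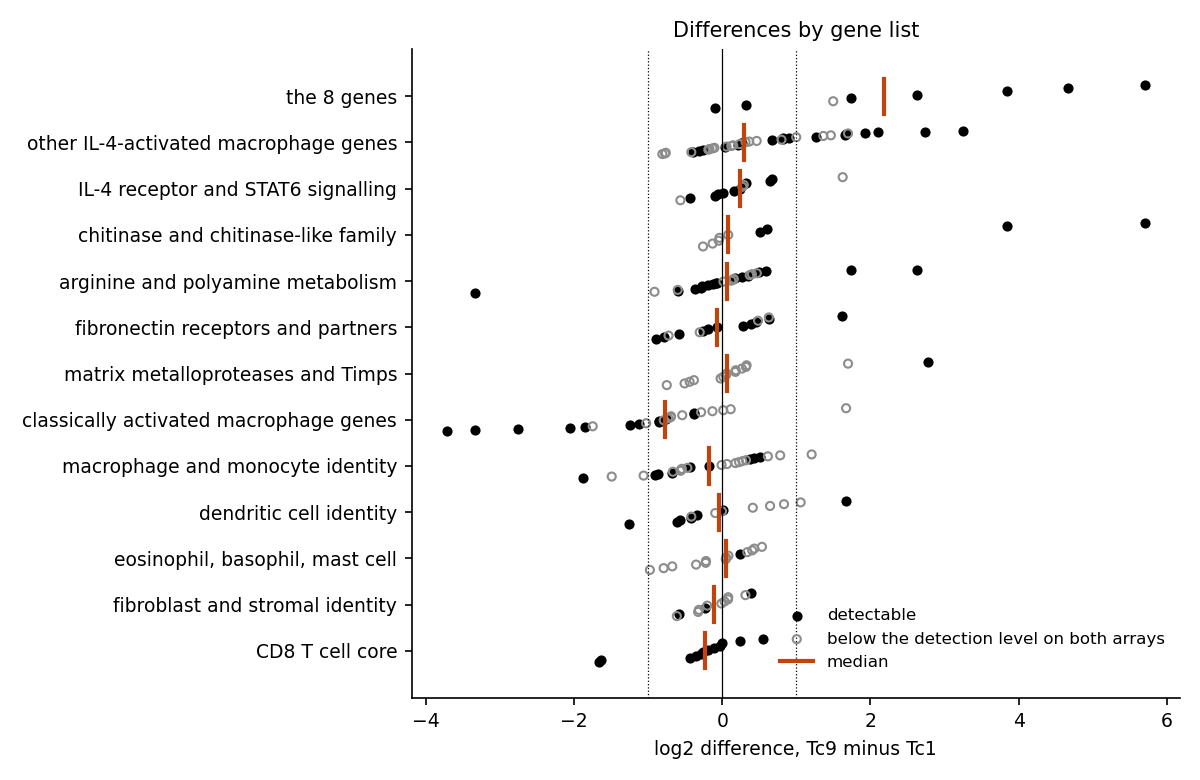
Log2 differences (Tc9 minus Tc1, horizontal axis) of single genes in each list, with filled points for detectable genes, open points for genes below the detection level on both arrays and a bar at the median of all measured genes of the list. Dotted lines mark 2-fold; the 8 genes have a median of 2.18 and the classically activated macrophage genes one of -0.77, while the other lists lie between -0.23 and 0.29.

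Markers that define macrophages and monocytes were mostly dim, and as a group they did not have higher signals on the Tc9 array. Among the 25 with a probe set, 9 were detectable, of which none passed 2-fold toward Tc9, against 2.62% of all detectable genes, and 1 did so toward Tc1, against 2.79%. Without the filter, 1 of the 25 passed 2-fold toward Tc9 and 3 toward Tc1, against 1.80% and 2.08% of all genes, and the 1 was Cx3cr1, a chemokine receptor, at 74.2 in Tc9 cells and 32.1 in Tc1 cells. At the 95th percentile of the neg controls, 4 of the markers were detectable. The median difference of all 25 was -0.19, and the summed signal of all 25 was 2464 in Tc9 cells and 3182 in Tc1 cells. Adgre1, which encodes F4/80, had a signal of 55.9 in Tc9 cells and 32.5 in Tc1 cells, and Csf1r, the receptor for the macrophage growth factor, had 69.2 and 61.2, all below the level. Mertk, Cd14, C1qa, C1qc, Vsig4, Siglec1 and Tyrobp were below it on both arrays as well. The brightest were Spi1, at 765 in Tc9 cells and 1225 in Tc1 cells, Lyz2, at 443 and 329, and Fcgr3, at 186 and 341. Spi1 encodes PU.1 and is also active in B cells, Lyz2 encodes a lysozyme and Fcgr3 an Fc receptor. Mpeg1, a perforin-like gene of macrophages that other immune cells also make, had 60.2 in Tc9 cells and 221 in Tc1 cells, at least 2.57-fold lower. Clec4n and C1qb were the other detectable ones with higher Tc9 signals, by 0.37 and 0.51. Whether macrophages in the cultures contributed to the signals of the 8 genes was not tested, and in bulk RNA fewer cells of a type and less RNA per cell cannot be told apart.

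**Figure D5:**
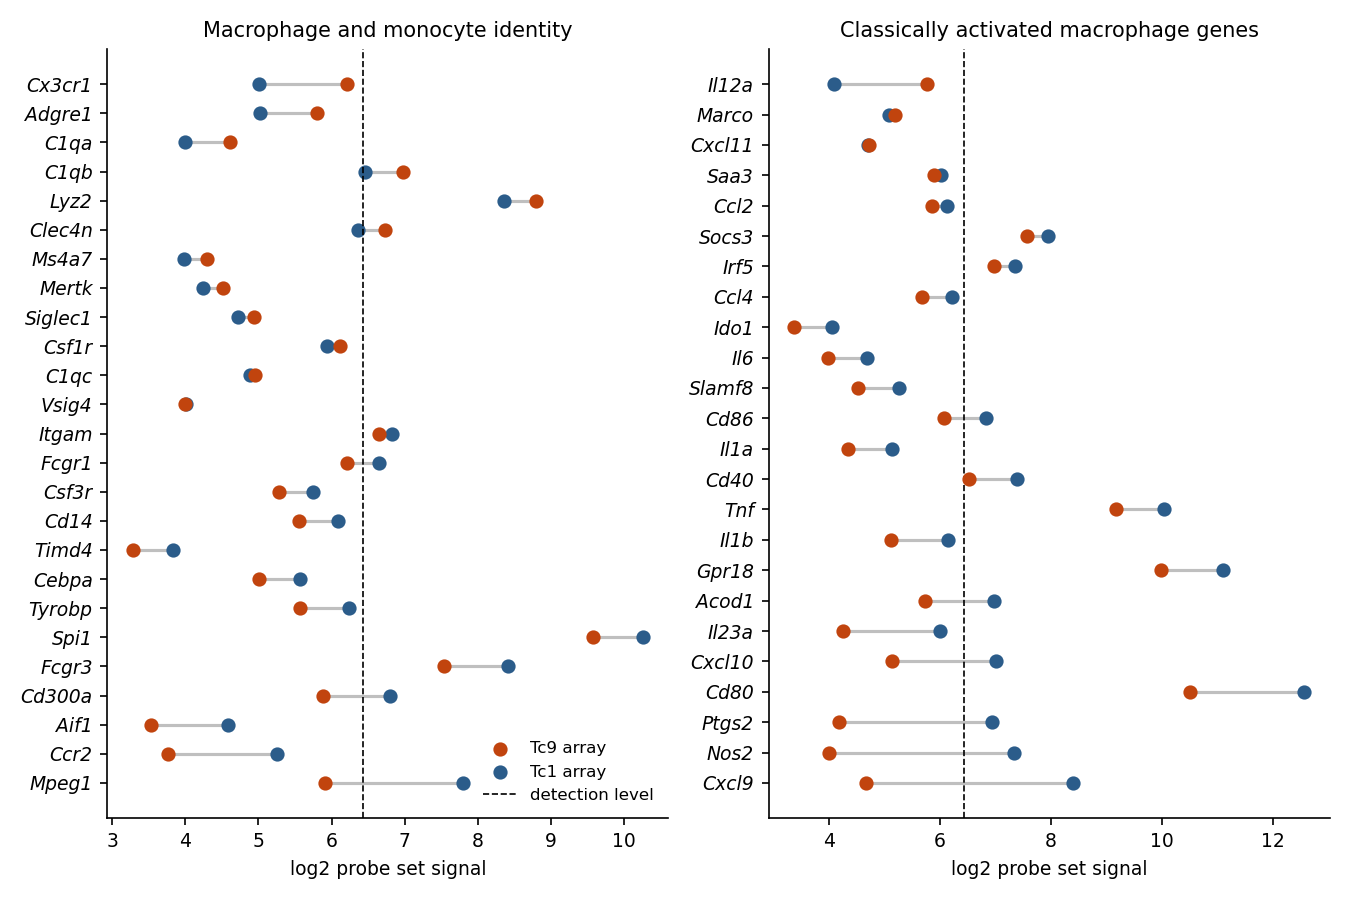
Log2 probe set signal (horizontal axis) on the Tc9 and Tc1 arrays of the macrophage and monocyte identity genes (left) and the classically activated macrophage genes (right), sorted by difference, with the detection level as a dashed line. On the left 16 of 25 genes lie below the level on both arrays, and on the right the Tc9 points lie below the Tc1 points for 21 of 24 genes.

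Other cells that can make some of these genes were read from their own markers. Of 14 dendritic cell genes, 7 were detectable, with a median difference of -0.05 and summed signals of 5035 in Tc9 cells and 5787 in Tc1 cells. H2-Ab1 and H2-Aa, class II genes that B cells share, carried most of that sum, and Batf3 and Fscn1 had differences of -0.61 and -0.57. Zbtb46, a transcription factor of dendritic cells, had 48.0 in Tc9 cells and 115 in Tc1 cells, at least 1.33-fold lower, while Ccl17 went the other way. Itgax, which encodes CD11c, stayed just under the level, with 85.1 in Tc9 cells and 40.9 in Tc1 cells, a difference of 1.06. Flt3, Xcr1 and Clec9a were below the level on both arrays. Among the 7 detectable dendritic cell genes, 1 passed 2-fold toward Tc9 and 1 toward Tc1, against 2.62% and 2.79% of all detectable genes. Over all 14 genes without the filter, 2 passed 2-fold toward Tc9 and 1 toward Tc1, against 1.80% and 2.08% of all genes. Of 14 eosinophil, basophil and mast cell genes, Kit alone was detectable, with a difference of 0.24. Their summed signal, with 13 of the 14 below the level on both arrays, was 465 in Tc9 cells and 534 in Tc1 cells. The CD8 T cell core genes were all detectable, 12 of 12, with a median of -0.23 and summed signals of 30183 in Tc9 cells and 35355 in Tc1 cells. Cd5 and Cd6 were the 2 that passed 2-fold, both toward Tc1, with differences of -1.66 and -1.64. None passed 2-fold toward Tc9, and the shares of all detectable genes were 2.62% toward Tc9 and 2.79% toward Tc1.

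The detectable genes closest to each of the 5 higher genes were found by distance in the plane of both log2 signals, that is over 2 arrays. Closest to Chil3 were Efna5, Fgf2 and Cask, at distances of 0.88, 1.22 and 1.44. The Tc1 values of Chil3 and of these genes all lie under the level, so their order has no meaning, and Efna5 had a log2 signal of 9.28 in Tc9 cells. Ccr8, a chemokine receptor, lay 0.49 from Mmp12, followed by Tmem176b at 1.03 and Nt5e at 1.10. Il10, an anti-inflammatory cytokine, lay 0.51 from Chil4, followed by Abi3bp and Cd200r1. Atp6v0d2, a subunit of the vacuolar proton pump, had nearly the values of Arg1, at log2 signals of 7.69 in Tc9 cells and 4.90 in Tc1 cells, and Ldlrad4 and Plcd1 were next. Armcx4, Pparg and Mei4 lay 0.057, 0.078 and 0.12 from Fn1. The Tc1 values of Chil4, Arg1, Fn1 and the genes named beside them were under the level as well. With 2 arrays, such closeness says only that the signals were alike.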

How the data were processed

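The authors deposited 1 table of probe set intensities on a linear scale, for 1 Tc9 and 1 Tc1 array. Per the labels' protocols, Trizol RNA was labelled with biotin by a whole-transcript sense-target method. How probes were summarized, background corrected or normalized is not given in the sources used here. Signals ran from 4.87 to 13045 on the Tc9 array and from 5.12 to 14977 on the Tc1 array, with medians of 53.1 and 57.2, so they were taken as normalized and only log2 transformed. Of 28846 probe sets, 19572 had 1 gene symbol, none had several and 9274 had none. For 55 genes with several probe sets the brightest was used. All 19572 Entrez numbers matched the GRCm38.p6 gene table.

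With 1 array per group there is no test, no SE and no p-value, and the number of arrays limits the precision. The size rule was 2-fold among detectable genes. All 8 genes are named. Up to 5 detectable genes of each list with the largest absolute difference are named, with the brightest macrophage and dendritic cell markers, genes below the level, the 3 nearest genes to each higher gene, and Il9, Ifng and Cd8a. Nearest genes leave out predicted, microRNA and receptor segment genes. Chosen after their values were seen were Igf1, Irf4, Ccl22, Clec4n, and those of the RefSeq gene order. The genes and lists were chosen with earlier results of these data known. Promoter windows were aligned locally with Biopython 1.88, and calculations used Python 3.11.15, numpy 2.4.6 and pandas 2.3.3. Counting was tested on simulated data. Median centring, quantile normalization, an offset of 50, another detection level, dim values at the level, the mean of probe sets and size rules of 1.5-fold and 4-fold were tried.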

Additional observations from a re-analysis of the deposited data

How the results depend on the processing

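No paired analysis was possible because each group is 1 array. With no replicates, a difference was taken as moved where it shifted by more than 0.31, the robust SD of the pos control differences. Taking the mean of probe sets left the 8 genes as they were, because each has 1 probe set. The 5 higher genes stayed at least 2-fold higher under median centring, quantile normalization, the offset of 50 and detection at the 95th percentile of the neg controls. At that percentile, log2 signals of 7.02 on the Tc9 array and 7.30 on the Tc1 array, Clec10a and Tmem26 were no longer detectable, and the folds became at least 14.5 for Mmp12, 5.02 for Chil3, 1.28 for Arg1 and 1.14 for Chil4, with no bound above 1 for Fn1, so those counts rest on measured dim values. Dim values and the offset shrink the differences by construction: with dim values at the level the median of the 8 genes was 0.96, and with the offset it was 1.35, where Chil3 had 3.69, Chil4 1.87, Mmp12 4.06, Arg1 1.61, Fn1 1.09 and Mrc1 0.43. The offset left 164 genes at least 2-fold higher. A size rule of 1.5-fold gave 791 genes higher and 688 lower, 11 other IL-4-activated macrophage genes higher and 4 macrophage identity genes lower. A rule of 4-fold gave 69, 72, 3 and 0, and kept 4 of the 8 genes. Clec10a stayed between -0.10 and -0.03. A change of direction was looked for only in differences that were at least 2-fold in the main results, not in counts. None of these changed direction, though dim values at the level, the offset and the mean of probe sets cannot turn their sign.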
